A study of Homo sapiens with 6 samples.

Results

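The genes described here are the protein arginine methyltransferases PRMT1, PRMT2, PRMT3, CARM1, PRMT5, PRMT6 and PRMT7, together with the PRMT5 partner proteins WDR77, RIOK1 and CLNS1A. They were chosen by name as the arginine methyltransferases and PRMT5 cofactors of the series, and they are 10 of the 24462 gene symbols in the deposited count files. All 10 passed the filter on low counts that left 16314 genes for testing. RNA was sequenced from 6 samples labelled PC3, a cell line derived from a prostate cancer metastasis, 3 of them transfected with a non-targeting siRNA (si-Cont in the labels, si-Control here) and 3 with siRNAs against CITED2 (si-CITED2). Both siRNAs were used at 80 nM and the cells were collected after 72 h. CITED2 is a transcriptional co-regulator that binds the acetyltransferases EP300 and CREBBP, and the study asked how its loss alters gene expression in prostate cancer cells, having placed CITED2 beside PRMT5 and the RNA-binding protein nucleolin (NCL).

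Protein arginine methyltransferases transfer methyl groups from S-adenosylmethionine to arginine side chains of histones and of RNA-binding, ribosomal and splicing proteins. Type I enzymes (PRMT1, PRMT2, PRMT3, CARM1 and PRMT6) make asymmetric dimethylarginine, the type II enzyme PRMT5 makes symmetric dimethylarginine, and the type III enzyme PRMT7 makes monomethylarginine. PRMT5 works in a stable complex with WDR77, while RIOK1 and CLNS1A compete for binding to PRMT5 and bring different substrates to it, NCL in the case of RIOK1 and the spliceosomal Sm proteins in the case of CLNS1A.

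Total counts per library ranged from 19508925 to 28936374, so that 3 counts, the limit that a count of 0 allows, corresponded to 0.104 to 0.154 CPM (counts scaled to a common library total). The study describes the experiment as repeated independently for each of the 3 replicates, whereas the labels give only replicate numbers. The targeted gene went against its label. Counts of CITED2 were 966, 1108 and 657 in si-Control against 893, 964 and 898 in si-CITED2, in order of replicate number, and after normalization it was 0.24 ± 0.07 (SE) higher on the log2 scale in the libraries labelled si-CITED2 (edgeR's quasi-likelihood test, adjusted p = 0.0363). That call was lost in 4 of the 6 fits without 1 library, those without si-Control replicate 1 (adjusted p = 0.0536) or 3 (0.141) and without si-CITED2 replicate 1 (0.154) or 3 (0.0846), but the value stayed above 0 in each. Every direction given here is therefore between libraries labelled si-CITED2 and libraries labelled si-Control, and no fall of CITED2 mRNA stands behind it. The study checked the knockdown on CITED2 protein by immunoblot, which is not part of the counts. The labelled cell line was also at odds with a defining marker. CTNNA1, alpha-catenin, which is known to be missing from PC3 and was chosen after count values had been seen, had 9796 to 13339 counts in every library. The epithelial markers KRT8, KRT18, KRT19, EPCAM and CDH1 were detected in every library at 1735 counts or more, and KLK3 had 0 to 2.

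Of markers of fibroblasts, endothelium and blood cells, 13 in all, the summed level was 144 to 152 CPM in si-Control and 134 to 157 in si-CITED2, most of it from CD68, and CD3E and PTPRC stood at 0 to 2 counts. HBA1 and HBB, which encode haemoglobin alpha and beta, passed the test as higher in si-CITED2, and no other marker on the list passed it. Counts of HBA1, which has a near-identical copy in HBA2, were 1, 3 and 1 in si-Control against 44, 55 and 37 in si-CITED2. HBB was at 0 in each si-Control library, against 20, 32 and 20 counts in si-CITED2. The fibroblast marker COL1A1 did not overlap between the groups, with a log2 fold change of 0.32 ± 0.13 (SE, adjusted p = 0.105), and LYZ, lysozyme, gave 0.93 ± 0.38 (adjusted p = 0.107) with overlapping groups. Too scarce for testing, PDGFRA had 1, 1 and 2 counts against 11, 8 and 7, and CDH5, an endothelial cadherin, had 7, 9 and 4 against 2, 1 and 0. The part of these in the results below was not tested.

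Among the 10 genes, PRMT1, PRMT5, PRMT7, WDR77 and RIOK1 were lower in the libraries labelled si-CITED2 and none was higher, at an adjusted p below 0.05 over all genes tested (edgeR's quasi-likelihood test). DESeq2 called the same numbers, 5 lower and 0 higher, and at an unadjusted p below 0.05 there were 6 lower and 0 higher. With 1 library left out, however, 1 to 3 were called lower: 3 without si-Control replicate 1 or 3, 2 without si-CITED2 replicate 1, 2 or 3, and 1 without si-Control replicate 2. The falls were small, between 10.8% for PRMT5 and 20.0% for PRMT7. PRMT2, PRMT3, CARM1, PRMT6 and CLNS1A did not pass the test. Over all 16314 genes tested, 2846 (17.4%) passed, 1319 of them lower (8.09%) and 1527 higher (9.36%). At an unadjusted p below 0.05 in edgeR there were 4728 of the 16314 genes, in either direction. The median log2 fold change was -0.17 over the 10 genes and -0.0014 over all genes tested. In 6 of the 10 genes, the called ones and PRMT6, every si-CITED2 library lay below every si-Control library, and in none did every si-CITED2 library lie above. Groups that did not overlap were found in 32.5% of all tested genes, with si-CITED2 below in 16.1% and above in 16.4%. The sum of the normalized counts of the 10 genes was 20225 ± 750 (SD, n = 3) in si-Control and 18943 ± 179 (SD, n = 3) in si-CITED2, a decrease of 6.34% in which the groups did not overlap. In these bulk samples, fewer cells of a kind and less RNA per cell cannot be told apart.

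**Figure D1:**
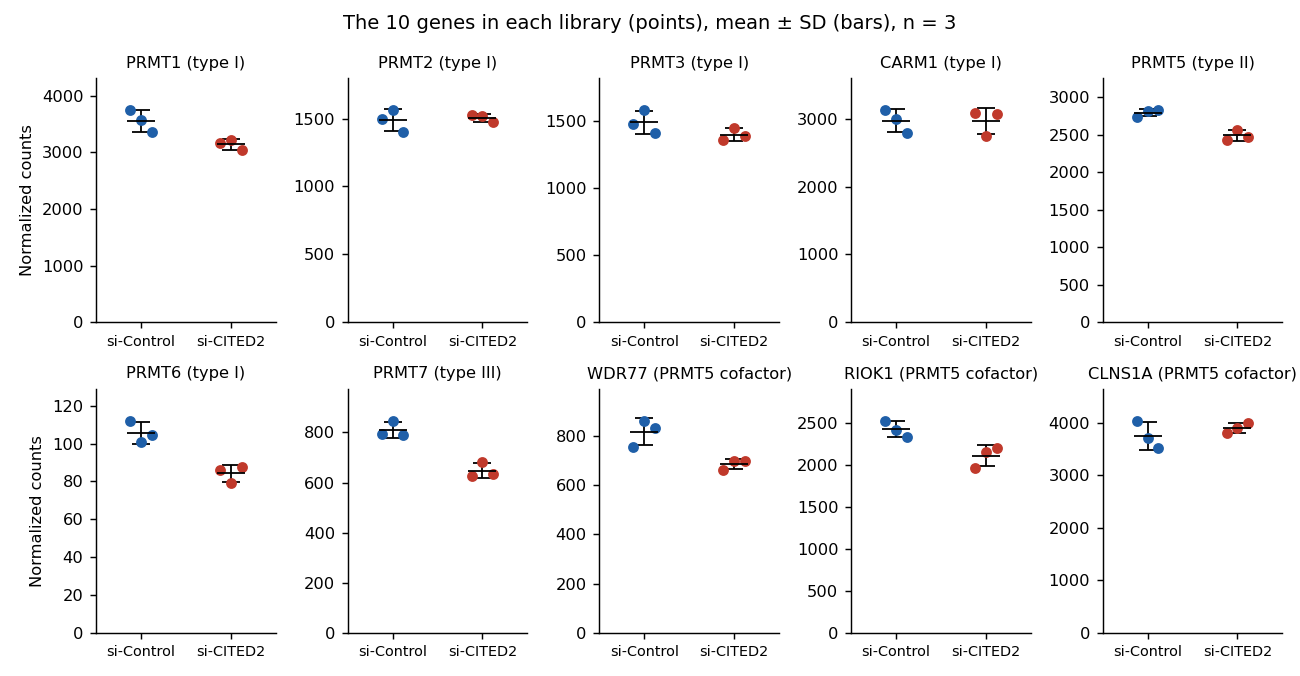
Normalized counts of the 10 genes (vertical axes, each starting at 0) in each of the 3 si-Control libraries (blue) and 3 si-CITED2 libraries (red), in order of replicate number, with the mean and SD as black bars. PRMT1, PRMT5, PRMT6, PRMT7, WDR77 and RIOK1 show no overlap between the groups, whereas PRMT2, PRMT3, CARM1 and CLNS1A overlap.

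The levels of the genes spanned a wide range. They were expressed as CPM per kilobase of transcript, with each library scaled as in the test. PRMT1 was the most abundant of the 10 in si-Control at 108 ± 5.99 (SD, n = 3). That was above 95.6% of the tested genes whose symbol is in GENCODE 29. CLNS1A followed at 53.1 ± 3.71, PRMT5 at 46.9 ± 0.829, CARM1 at 38.0 ± 2.14 and RIOK1 at 36.7 ± 1.42. PRMT3 stood at 23.8 ± 1.35, PRMT2 at 21.9 ± 1.16, WDR77 at 13.5 ± 0.906, PRMT7 at 8.10 ± 0.317 and PRMT6 at 1.72 ± 0.0936. PRMT6 lay above 25.5% of the tested genes whose symbol is in GENCODE 29. In si-Control the ranges of CARM1 and RIOK1 overlapped, as did those of PRMT3 and PRMT2, and all other neighbours in this order were separated in every library. In si-CITED2, CARM1 (35.1 to 39.4) and RIOK1 (29.7 to 33.4) no longer overlapped. These levels rest on the length of 1 annotated transcript per gene in GENCODE 29, which the libraries need not have used.

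**Figure D2:**
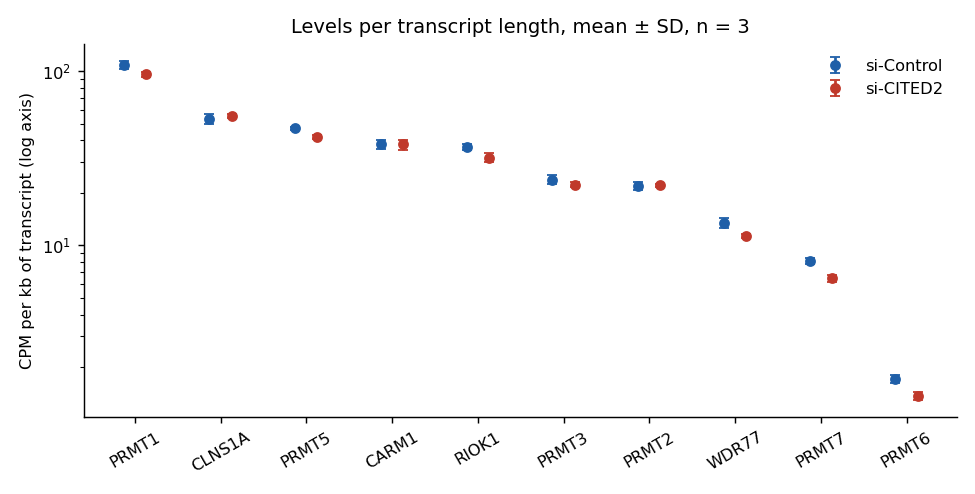
Level of each gene in CPM per kilobase of transcript (log axis), as the mean of 3 libraries with SD, for si-Control (blue) and si-CITED2 (red). The order from PRMT1 to PRMT6 is the same in both groups, and the levels in si-Control run from 108 down to 1.72.

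PRMT1, the type I enzyme that makes most of the asymmetric dimethylarginine of mammalian cells, is encoded on the plus strand of chromosome 19 (chr19:49675786-49689029 in GENCODE 29, GRCh38). It had 3746, 3567 and 3353 normalized counts in si-Control against 3173, 3219 and 3037 in si-CITED2. The lowest si-Control library lay above the highest si-CITED2 library. The log2 fold change was -0.18 ± 0.05 (SE), a fall of 11.7% (95% confidence interval 4.49% to 18.3% lower), with an adjusted p of 0.0278. This call was sensitive to the choice of libraries. It held without si-Control replicate 3 (adjusted p = 0.0132) and without si-CITED2 replicate 1 (0.0456). It was lost without si-Control replicate 1 (0.0808), si-Control replicate 2 (0.0866), si-CITED2 replicate 2 (0.0602) or si-CITED2 replicate 3 (0.144), with the log2 fold change between -0.22 and -0.14 in all 6 fits.

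The other type I enzymes did not pass the test. They are encoded on the plus strand at chr19:10871513-10923070 (CARM1), chr21:46635167-46665124 (PRMT2), chr11:20387530-20509294 (PRMT3) and chr1:107056679-107067636 (PRMT6). CARM1, a coactivator-associated enzyme that methylates histone H3 and splicing factors, had 3134, 3005 and 2800 normalized counts in si-Control against 3092, 2752 and 3082 in si-CITED2. Its groups overlapped almost fully, and the interval of the difference ran from 8.59% lower to 8.76% higher (adjusted p = 0.976). PRMT2 had 1499, 1562 and 1405 against 1526, 1517 and 1471, with an interval from 7.21% lower to 9.88% higher (adjusted p = 0.905). For both, the signs of the small differences changed with the libraries used. PRMT3, which methylates the ribosomal protein RPS2, had 1478, 1579 and 1411 against 1356, 1450 and 1384. Its groups overlapped, with a log2 fold change of -0.09 ± 0.06 (SE) and an interval from 14.2% lower to 2.29% higher (adjusted p = 0.334).

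PRMT6, a nuclear enzyme that methylates histone H3, was the scarcest of the 10 genes, at 126, 125 and 89 raw counts in si-Control against 71, 83 and 80 in si-CITED2. As normalized counts these were 112, 101 and 105 against 86.2, 79.3 and 87.6, so the groups did not overlap. Its log2 fold change, -0.33 ± 0.15 (SE), was as large as that of PRMT7, but its interval ran from 36.1% to 0.612% lower and the adjusted p was 0.159 (unadjusted p = 0.0446). Counting error alone gives PRMT6 a coefficient of variation of 10.2% per library, against 3.68% for PRMT7, and the spread seen between replicates, 5.43% and 5.29%, was below that counting error.

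PRMT5, the principal enzyme of symmetric dimethylation, lies on the minus strand at chr14:22920511-22929585. It had 2740, 2821 and 2830 normalized counts in si-Control against 2437, 2569 and 2473 in si-CITED2. Its replicates were close, with coefficients of variation of 1.77% and 2.74%, and the groups did not overlap. This was a log2 fold change of -0.17 ± 0.05 (SE), or a fall of 10.8% (95% confidence interval 4.10% to 17.1% lower), with an adjusted p of 0.0290. The call held without si-Control replicate 1 (adjusted p = 0.0244) and without si-CITED2 replicate 2 (0.0498). It was lost without si-Control replicate 2 (0.101), si-Control replicate 3 (0.0740), si-CITED2 replicate 1 (0.0716) or si-CITED2 replicate 3 (0.112), while the log2 fold change stayed between -0.19 and -0.15. With all 6 libraries and the replicate number added to the edgeR model, PRMT5 also missed the threshold (adjusted p = 0.0505).

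An antisense gene, PRMT5-AS1, overlaps 6390 bases of the PRMT5 locus on the other strand. It had 669, 669 and 693 normalized counts in si-Control against 570, 654 and 615 in si-CITED2 (log2 fold change -0.14 ± 0.07 (SE), adjusted p = 0.216). Whether strand was used in counting is not given in the sources used here, so reads of PRMT5 and PRMT5-AS1 cannot be told apart where they overlap. WDR77 shares 513 bases with ATP5PB (ATP5F1 in the files), which had 2327, 2333 and 2176 against 2079, 2375 and 2261 normalized counts with overlapping groups. The other annotated neighbours that share bases with PRMT1, CARM1, PRMT7, RIOK1 or CLNS1A and are listed in the files did not pass the test or the filter on low counts.

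PRMT7, the type III enzyme, lies at chr16:68310974-68358563 on the plus strand. It had 795, 846 and 788 normalized counts in si-Control against 627, 682 and 634 in si-CITED2. The gap between the groups was wider than the range within either of them. The log2 fold change was -0.32 ± 0.07 (SE), a fall of 20.0% (95% confidence interval 11.6% to 27.6% lower), with an adjusted p of 0.00302. PRMT7 was the only one of the 10 genes that passed in each of the 6 fits with 1 library left out (adjusted p 0.00553 to 0.0240) and in each of the 7 other settings tried (adjusted p 0.00117 to 0.00586). Its fall was close to the median of all genes called lower, an absolute log2 fold change of 0.30. Of the genes called lower, 43% fell by more than any of the 10 genes.

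**Figure D3:**
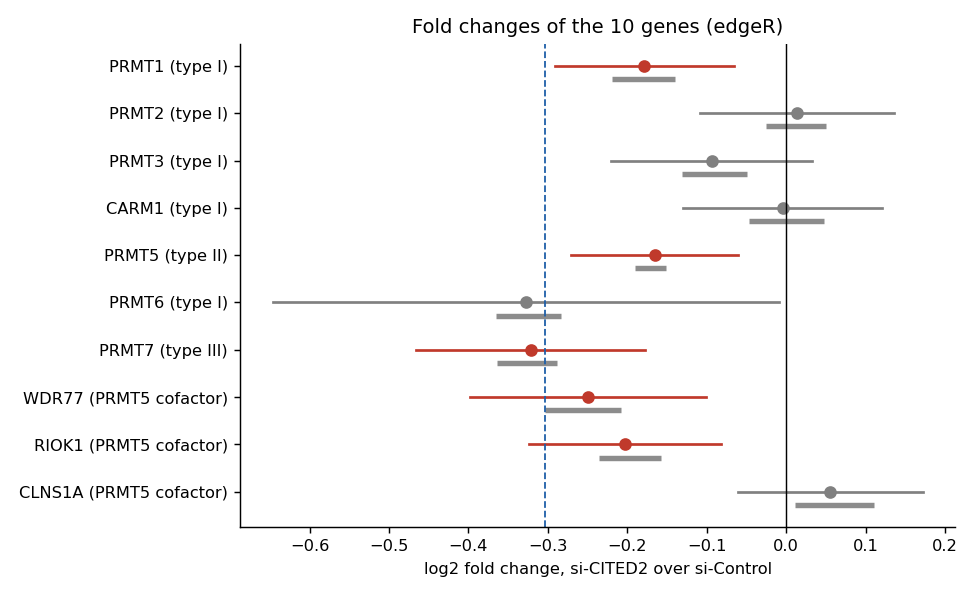
The log2 fold change (horizontal axis, si-CITED2 over si-Control) of each gene with its 95% confidence interval, in red where the adjusted p passed and in grey where it did not. The thick grey bar under each line spans the 6 fits with 1 library left out, and the dashed line marks the median fall of all genes called lower, a log2 change of 0.30, which the PRMT6 and PRMT7 estimates exceed slightly.

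Of the PRMT5 cofactors, WDR77 and RIOK1 were lower and CLNS1A was not. WDR77, the WD-repeat protein (also called MEP50) that holds substrates to PRMT5, had 756, 861 and 834 normalized counts in si-Control against 662, 699 and 700 in si-CITED2 (chr1:111439890-111449376, minus strand). The groups did not overlap. This was a log2 fold change of -0.25 ± 0.07 (SE), a fall of 15.9% (95% confidence interval 6.75% to 24.1% lower), with an adjusted p of 0.0208. Of the 6 fits without 1 library, the call held in the one without si-Control replicate 1 (adjusted p = 0.00683). It was lost without si-Control replicate 2 (0.111) or 3 (0.0579) and without si-CITED2 replicate 1 (0.0673), 2 (0.0526) or 3 (0.0536).

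RIOK1, an atypical kinase with a role in maturation of the small ribosomal subunit, had 2530, 2426 and 2342 normalized counts in si-Control against 1970, 2157 and 2211 in si-CITED2 (chr6:7389496-7418037, plus strand). All si-CITED2 libraries lay below the si-Control libraries. The difference was a log2 fold change of -0.20 ± 0.06 (SE), a fall of 13.1% (95% confidence interval 5.56% to 20.1% lower), with an adjusted p of 0.0205. The call held without si-Control replicate 3 (adjusted p = 0.0210) and without si-CITED2 replicate 3 (0.0298). It was lost without si-Control replicate 1 (0.0576) or 2 (0.0609) and without si-CITED2 replicate 1 (0.0762) or 2 (0.0512).

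CLNS1A, the chloride channel regulator homologue known as pICln that chaperones Sm proteins, had 4032, 3703 and 3515 normalized counts in si-Control against 3812, 3891 and 3996 in si-CITED2 (chr11:77514936-77637805, minus strand). Its groups overlapped. Its log2 fold change was 0.06 ± 0.05 (SE), with an interval from 4.12% lower to 12.6% higher (adjusted p = 0.562).

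Ratios of counts within a library need no scaling between libraries, and they were used to set each cofactor against PRMT5. The CLNS1A to PRMT5 ratio was 1.47, 1.31 and 1.24 in si-Control against 1.56, 1.51 and 1.62 in si-CITED2. All 3 si-CITED2 ratios were above the si-Control ratios, with a log2 difference of 0.23 ± 0.08 (SE). The WDR77 to PRMT5 ratio was 0.276, 0.305 and 0.295 against 0.272, 0.272 and 0.283, and the RIOK1 to PRMT5 ratio was 0.923, 0.860 and 0.827 against 0.808, 0.839 and 0.894. Both overlapped between groups, with log2 differences of -0.08 ± 0.05 (SE) and -0.04 ± 0.06 (SE). In the two-sided exact permutation test, p was 0.1 for CLNS1A, the smallest that 3 against 3 libraries allow, 0.2 for WDR77 and 0.6 for RIOK1. Adjusted over the 3 ratios, p was 0.3, 0.3 and 0.6.

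**Figure D4:**
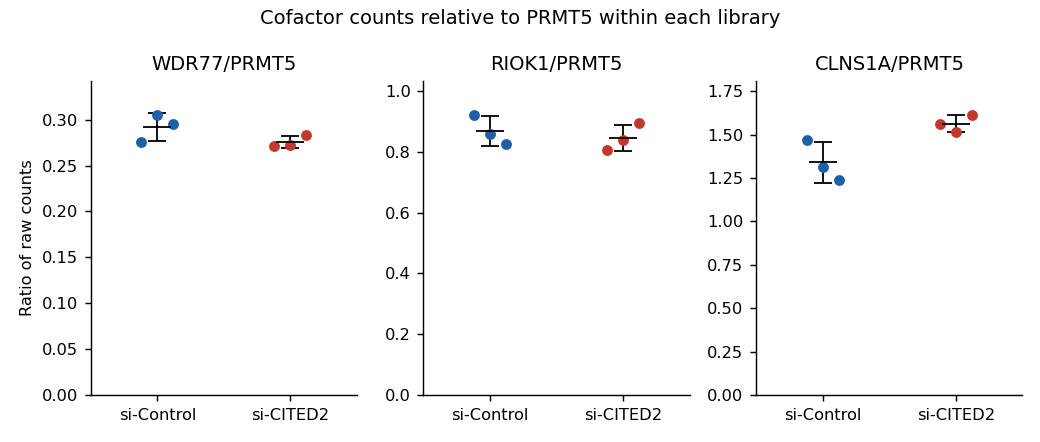
Ratio of raw counts of WDR77, RIOK1 and CLNS1A to those of PRMT5 in each library (points; si-Control blue, si-CITED2 red), with mean and SD as black bars and vertical axes from 0. The CLNS1A ratio is 1.24 to 1.47 in si-Control and 1.51 to 1.62 in si-CITED2, while the other ratios overlap.

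The sequences before the start sites of PRMT1, PRMT5 and WDR77 are shown as the windows with repeated CCAAT boxes or CGCG elements. They are the 250 bases before the RefSeq start (GRCh38.p14), 5′ to 3′ on the strand of the gene. Capitals mark CCAAT boxes (ATTGG when on the other strand) in PRMT1 and PRMT5 and the palindromic CGCG element in WDR77. The motifs were chosen after the sequences had been read. In GENCODE 29 the annotated span of each of these genes begins inside or upstream of its window.
PRMT1 (chr19:49677021-49677270, plus strand): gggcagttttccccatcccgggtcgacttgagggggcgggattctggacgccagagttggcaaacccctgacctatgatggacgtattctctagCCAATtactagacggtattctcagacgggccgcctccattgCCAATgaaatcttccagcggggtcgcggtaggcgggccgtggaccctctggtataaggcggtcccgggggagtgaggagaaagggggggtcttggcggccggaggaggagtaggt
PRMT5 (chr14:22929377-22929626, minus strand): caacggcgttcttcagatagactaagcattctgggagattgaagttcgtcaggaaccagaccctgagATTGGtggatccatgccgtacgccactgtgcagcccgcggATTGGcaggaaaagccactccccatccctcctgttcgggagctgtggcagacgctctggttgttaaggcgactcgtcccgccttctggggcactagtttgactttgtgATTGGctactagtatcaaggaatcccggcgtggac
WDR77 (chr1:111449257-111449506, minus strand): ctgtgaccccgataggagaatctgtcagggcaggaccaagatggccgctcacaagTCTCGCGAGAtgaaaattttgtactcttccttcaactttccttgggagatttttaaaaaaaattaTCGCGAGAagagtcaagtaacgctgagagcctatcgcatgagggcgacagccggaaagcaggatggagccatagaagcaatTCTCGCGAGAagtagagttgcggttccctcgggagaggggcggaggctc

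CCAAT boxes (letters CCAAT, either strand) were found in the windows of 2 of the 10 genes, with 2 copies in PRMT1 and 3 in PRMT5, and in 33% of 27305 RefSeq promoters of the same length. The CGCG element (TCTCGCGA, either strand, with overlapping matches in a palindrome) was found in WDR77 and in no other of the 10 windows, and in 1.05% of all promoters. It occurs at 3 places in the WDR77 window. Of the other motifs searched on both strands, the GC box (GGGCGG) was in 7 of the 10 windows and 42.3% of all promoters, the ETS motif (CCGGAAG) in 3 of 10 and 8.82%, and the E-box (CACGTG) in 1 of 10, that of PRMT3, and 6.49%. Repeated GC boxes lay in windows of genes that did not pass the test, with 5 in CARM1, 2 in PRMT2 and 2 in PRMT3, and PRMT7 and RIOK1, which fell, held no repeated motif among those searched. A match is a description of the letters and not a site of binding.

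Genes around arginine methylation were described by lists. Their counts at an unadjusted p below 0.05 in edgeR stand against 4728 of all 16314 genes tested, in either direction. Of 4 further family members or partners that were tested (PRMT9, COPRS, NDUFAF7 and METTL23), none passed in edgeR, none in DESeq2 and none at an unadjusted p below 0.05, with log2 fold changes from -0.10 to 0.13. PRMT8, an arginine methyltransferase of brain, had 0 to 2 counts. Of 23 tested proteins known to carry methylarginine, 2 were lower and none was higher (8.7%, against 17.4% of all genes), with a median log2 fold change of -0.06. At an unadjusted p below 0.05 there were 6 lower and 1 higher, and DESeq2 called 3 in all. Among those called by edgeR was NCL, the nucleolar RNA-binding protein. It had 35933, 34196 and 33616 normalized counts in si-Control against 27843, 31888 and 31031 in si-CITED2. Its groups did not overlap and the log2 fold change was -0.19 ± 0.05 (SE, adjusted p = 0.0197), a call that was lost without si-Control replicate 2 (0.0572) or si-CITED2 replicate 1 (0.0658).

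A looser list around the reading and removal of methylarginine had 2 higher and 2 lower of 14 tested (28.6%, against 17.4% of all genes). Not all of its genes act on methylarginine in proteins, so the share does not describe readers or removal as such. At an unadjusted p below 0.05 there were 3 lower and 2 higher, and DESeq2 called 4 in all. PADI2, a peptidylarginine deiminase that converts arginine to citrulline, had 182, 172 and 186 normalized counts in si-Control against 385, 332 and 435 in si-CITED2, with a log2 fold change of 1.09 ± 0.11 (SE, adjusted p = 3.2e-06). Every si-CITED2 library was far above every si-Control library. DDAH2, of the family of enzymes that hydrolyse free methylarginines, rose by 0.44 ± 0.07 (SE, adjusted p = 4.6e-04). TOP3B, a topoisomerase that acts with the Tudor protein TDRD3, gave -0.36 ± 0.11 (adjusted p = 0.0351), and PHF19, a Tudor protein of the Polycomb system, gave -0.28 ± 0.06 (adjusted p = 0.00181).

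The methyl donor list, the genes that make and recycle S-adenosylmethionine and methylthioadenosine, had 4 lower and 2 higher of 17 tested (35.3%, against 17.4% of all genes). Its median log2 fold change was -0.13. At an unadjusted p below 0.05 there were 5 lower and 3 higher, and DESeq2 called 6 in all. With 1 library left out, 3 to 6 were called. SRM, spermidine synthase, gave -0.32 ± 0.07 (SE, adjusted p = 0.00415), and ADI1, of the methionine salvage pathway, gave -0.31 ± 0.05 (adjusted p = 7.6e-04). SMS, spermine synthase, was higher at 0.21 ± 0.05 (adjusted p = 0.0133), as was MAT2B, the regulatory subunit of methionine adenosyltransferase, at 0.20 ± 0.06 (adjusted p = 0.0387). SRM and SMS make successive polyamines, and their mRNAs moved in opposite directions. Of 19 genes of the SMN complex and Sm core, which receive the Sm proteins that PRMT5 methylates, 2 were lower and none was higher. That was 10.5%, against 17.4% of all genes, with a median log2 fold change of -0.03. At an unadjusted p below 0.05 there were 4 lower and 0 higher, and DESeq2 called 2 in all. Among the 4 were the gene copies SMN1 and SMN2 (log2 fold changes -0.17 and -0.16), which need not be separate observations. GEMIN4 gave -0.32 ± 0.07 (SE, adjusted p = 0.00363) and GEMIN5, which recognises small nuclear RNAs, gave -0.24 ± 0.05 (adjusted p = 0.00391).

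Of 5 genes around CITED2 that the study works with, CITED2 was higher and NCL lower. EP300 (log2 fold change -0.07 ± 0.06 (SE), adjusted p = 0.528) and CREBBP (-0.04 ± 0.05, adjusted p = 0.682), the acetyltransferase partners of CITED2, did not pass. Nor did AKT1 (0.03 ± 0.05, adjusted p = 0.761), a kinase whose synthesis the study links to NCL. The study placed that link at translation of AKT mRNA, whose level it found unaltered by NCL knockdown.

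Markers of proliferating cells were also mostly lower in the libraries labelled si-CITED2. Of 15 such genes 13 were lower (86.7%, against 8.09% of all genes) and none was higher. In all 15 the groups did not overlap, with si-CITED2 below, as in 16.1% of all tested genes. The median log2 fold change was -0.34. At an unadjusted p below 0.05 all 15 were lower, and DESeq2 called 13. RRM2, a ribonucleotide reductase subunit, gave -0.64 ± 0.05 (SE, adjusted p = 4.1e-08) and TOP2A, the topoisomerase of dividing cells, gave -0.47 ± 0.05 (adjusted p = 1.9e-06). MCM6 and MYC did not pass (adjusted p = 0.130 and 0.0604). The 5 called methyltransferase and cofactor genes fell by less than the median of this list. The part of the proliferation markers in those falls was not tested. In the study, changing CITED2 left the growth and viability of cultured PC3 and DU145 cells unaltered, by cell counts and MTT assay rather than by RNA. In mice, however, the study reported slower growth of PC3 tumors in the prostate after knockdown of CITED2 or NCL, measured by bioluminescence.

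**Figure D5:**
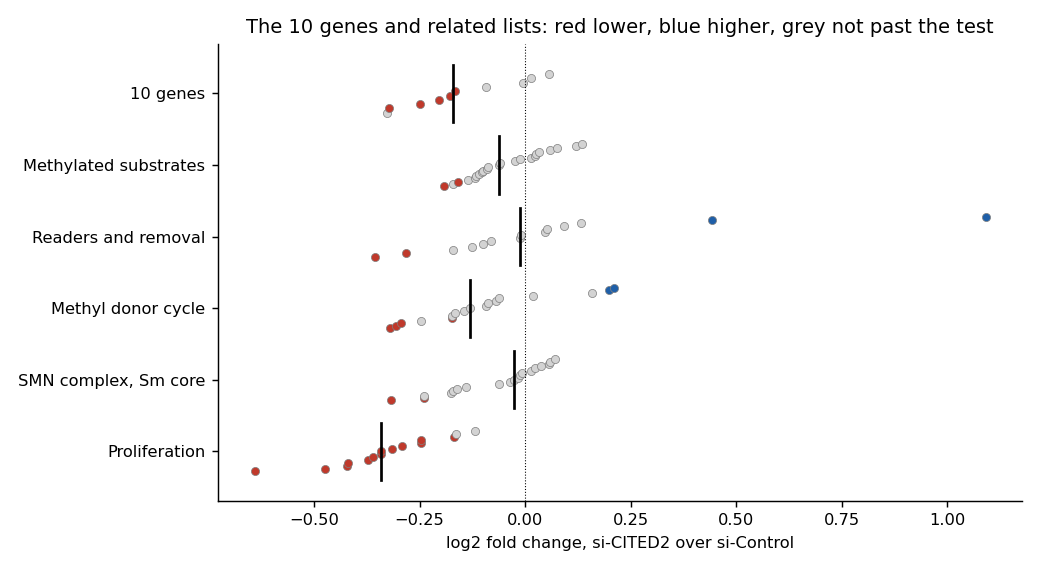
The log2 fold change (horizontal axis, si-CITED2 over si-Control) of each tested gene, with the 10 genes in the top row and 5 related lists below. Red points passed the test lower, blue points higher and grey points did not pass, and black bars are medians, which run from -0.34 for proliferation to -0.01 for readers and removal.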

How the data were processed

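RNA-seq libraries of total RNA from 3 si-Control and 3 si-CITED2 samples labelled PC3 were analysed. The deposited files hold raw read counts per gene symbol, which the authors made without normalization. The submitters' processing notes name TopHat, edgeR and hg19, with no versions, and the counter, annotation and strand setting are not given in the sources used here. The files held 25737 rows and 24462 symbols. For the 286 symbols with several rows, the row with most counts was kept.

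Counts were tested with edgeR 4.0.16 in R 4.3.3 (filterByExpr, TMM, quasi-likelihood test, no covariate), with Benjamini-Hochberg adjustment over all 16314 genes tested and a threshold of 0.05. Counts were normalized by the TMM-scaled size of their library relative to the mean size over libraries. Standard errors were taken from the F statistic. Ratios within libraries were compared by exact permutation. The script was tested on simulated data. Alternatives were no TMM, DESeq2 1.42.0 (size factors, and its own test), other filters, summed rows, a replicate block and leaving out each library. Replicates of a group differed by more than sampling noise. Loci are from GENCODE 29 on GRCh38, a build other than that of the reads, so they were used for annotation and length alone, and promoters are from RefSeq. All 10 genes are named. From each list up to 2 called genes in each direction are named, and NCL, EP300, CREBBP, AKT1 and CITED2 in any case. Some genes of the lists are not reported here. The genes and lists were chosen with earlier results of these data known.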

Additional observations from a re-analysis of the deposited data

How the results depend on the processing

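Of 167 recomputed fold changes and ratios, 138 kept their direction and, for fold changes, their side of the threshold. Another 23 kept their direction but lost the call, and 6 changed sign. The ratios were judged on direction alone, since their permutation p cannot fall below 0.1. With the replicate block a ratio difference cannot change at all, so those rows say nothing about robustness. Of 143 recomputed counts of calls, 120 stayed within 1.5 times the count reported. Without TMM, the call of CITED2 was lost (log2 fold change 0.22, adjusted p = 0.0518), the SMN complex list had 4 calls, the list around CITED2 had 1, and PRMT2 changed sign to -0.0032. Same-numbered libraries of the 2 groups showed no clear shared deviation, with correlations of -0.038, 0.0336 and -0.0109. Those between libraries of different numbers ran from -0.0438 to 0.0512. Such correlations cannot tell whether same-numbered libraries were prepared together. With the replicate block, PRMT5 gave -0.17 and missed the threshold (adjusted p = 0.0505), the substrate list had 1 call, and all genes gave 1154 lower and 1405 higher. Other settings over all libraries kept the 5 calls among the 10 genes.

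With 1 library left out, 1 to 3 of the 10 genes were called lower, while all genes gave 881 to 1328 lower and 1135 to 1519 higher. The log2 fold change was -0.22 to -0.14 for PRMT1, -0.19 to -0.15 for PRMT5, -0.30 to -0.21 for WDR77, -0.24 to -0.16 for RIOK1, -0.026 to 0.050 for PRMT2 and -0.047 to 0.047 for CARM1. CARM1 was above 0 without si-Control replicate 1 (0.033), si-Control replicate 2 (0.0013) and si-CITED2 replicate 2 (0.047), and PRMT2 was below 0 without si-Control replicate 3 (-0.026). CITED2 stayed above 0 at 0.17 to 0.29 but kept its call solely without si-Control replicate 2 (adjusted p = 0.0398) or si-CITED2 replicate 2 (0.0304). It was lost without si-Control replicate 1 (0.0536) or 3 (0.141) and without si-CITED2 replicate 1 (0.154) or 3 (0.0846). EP300 (-0.14 to 0.0051, the latter without si-Control replicate 3) and AKT1 (-0.0028 to 0.063, the former without si-CITED2 replicate 1) also changed sign. The log2 RIOK1 to PRMT5 ratio difference ran from -0.078 to 0.0051, the latter without si-Control replicate 1. Calls numbered 0 to 4 in the substrate list (4 without si-Control replicate 1, 0 without si-Control replicate 2, 1 without si-CITED2 replicate 1 or 3), 3 to 6 in the methyl donor list (3 without si-Control replicate 2 or 3 and si-CITED2 replicate 2 or 3), 2 to 4 in the SMN complex list (4 without si-CITED2 replicate 3) and 0 to 2 in the list around CITED2 (0 without si-CITED2 replicate 1). Fewer libraries enter each of these fits, and no other cause was tested. PRMT6 had the fewest counts of the 10 genes, 71 to 126 per library.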
